A study of Homo sapiens with 6 samples.

Results

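Hedgehog signalling was examined in A673/TR/shEF cells through 7 genes, GLI1, GLI2, GLI3, PTCH1, SMO, HHIP and SUFU. The genes were chosen by symbol as the core of the pathway, with earlier results of these data known. They are 7 of the 26364 gene symbols in the deposited expression table. The parental line, A673, was derived from an Ewing sarcoma and expresses the fusion oncogene EWSR1::FLI1. A673/TR/shEF cells carry in addition the tetracycline repressor and a shRNA against the fusion mRNA, which doxycycline switches on. RNAseq was available from 3 samples of these cells without doxycycline, named EWSR1::FLI1 high, and from 3 samples given doxycycline at 1 µg/mL over 72 h, named EWSR1::FLI1 low. The control and the knockdown cells thus share the shRNA construct and differ in doxycycline, so an effect of the drug itself and an effect of the knockdown cannot be told apart here. The series describes the 3 samples of a condition as independent clones, while their titles number them as experiments. If they were not grown separately, the p-values measure only the spread between these samples, which may be technical.

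In the hedgehog pathway a secreted ligand binds the receptor PTCH1, which otherwise holds the membrane protein SMO inactive. Active SMO, acting at the primary cilium, releases the GLI transcription factors from their binding partner SUFU and from proteolytic processing. GLI1 is mainly an activator, GLI2 the main primary activator and GLI3 largely a repressor in its processed form. GLI1, PTCH1 and HHIP are themselves classical target genes of the GLI factors, and GLI1 has been described as a gene that EWSR1::FLI1 controls directly in Ewing sarcoma.

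Expression is given as FPKM, fragments counted per length of gene and scaled by a size factor for each library. The unit corrects for gene length and so allows levels of different genes to be compared. Genes with a mean of at least 0.5 FPKM were tested with limma on log2(FPKM + 1), which left 15504 genes and 6 of the 7 hedgehog genes. Every log2 fold change below is EWSR1::FLI1 low minus EWSR1::FLI1 high on this scale, which understates the change of genes of low FPKM. A gene was called when its adjusted p (limma, Benjamini-Hochberg over all genes tested) was under 0.01. Reads on genes numbered between 6980361 and 16658933 per library. The size factors did not simply follow these reads. The factor was 0.951 for EWSR1::FLI1 low replicate 1 with 6980361 reads and 0.829 for EWSR1::FLI1 high replicate 3 with 8359615 reads. The summed FPKM of a library therefore depends on its factor as well. EWSR1::FLI1 low replicate 1 stood apart from the other libraries. Its median FPKM over all symbols was 1.096, against 0.667 to 0.847 in the other 5 libraries, and its summed FPKM was the lowest of the 6. FLI1, which gives the 3′ part of the fusion mRNA that the shRNA targets, was at 11.3, 12.7 and 14.2 FPKM in the EWSR1::FLI1 high cells and at 2.91, 4.29 and 3.68 FPKM in the EWSR1::FLI1 low cells. It fell by 1.57 on the log2 scale (adjusted p = 0.000676, limma). EWSR1, whose reads also come from the allele that is not rearranged, was at 91.5 ± 13.9 and 65.1 ± 16.0 FPKM (SD, n = 3 each), with an adjusted p of 0.159 (limma). All 4 Ewing sarcoma markers were detected, and 3 of them fell in the EWSR1::FLI1 low cells. STEAP1 went from 152 to 34.5 FPKM (adjusted p = 0.00108, limma), NR0B1 from 29.6 to 4.56 FPKM (adjusted p = 0.00172, limma) and NKX2-2 from 4.56 to 1.42 FPKM. CD99 was at 133 and 91.8 FPKM (adjusted p = 0.067, limma). Defining markers of leukocytes (PTPRC), endothelium (PECAM1, VWF) and epithelium (EPCAM) had group means between 0.160 and 1.12 FPKM. None of the 4 was at 0 in any library, and their summed FPKM was 1.27 to 1.77 in the EWSR1::FLI1 high and 1.81 to 2.63 in the EWSR1::FLI1 low libraries. PECAM1 was at 0.331 and 1.12 FPKM (adjusted p = 0.0333, limma), and the part of these markers in the results below was not tested.

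None of the 6 hedgehog genes tested was called by limma, where 7.88% of all genes tested were called. At an unadjusted p under 0.05 only GLI1 passed, with 34.3% of all genes tested passing at that level. With limma-voom on the recovered reads 1 of the 6, GLI1, was called, and 11.2% of all genes tested were called by that tool. The median log2 fold change was 0.17 over the 6 genes and -0.05 over all genes tested. The groups did not overlap for GLI1, where EWSR1::FLI1 low cells were lower, as in 23.6% of all genes tested. They did not overlap for GLI2 either, where EWSR1::FLI1 low cells were higher, as in 17.5% of all genes tested. For the other 5 genes the groups overlapped.

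**Figure D1:**
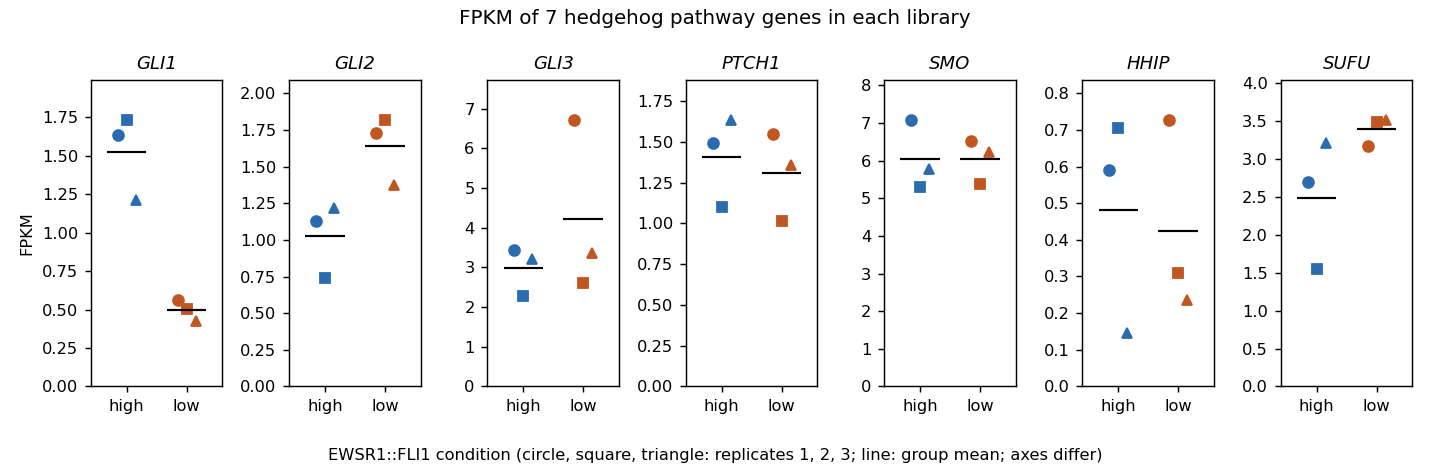
FPKM (vertical axes, each from 0 and on its own scale) of the 7 hedgehog genes in EWSR1::FLI1 high (blue) and EWSR1::FLI1 low (orange) libraries. Circles, squares and triangles are replicates 1, 2 and 3 and lines are group means. The groups are separate for GLI1 (1.21 to 1.73 against 0.426 to 0.559 FPKM) and GLI2 (0.741 to 1.22 against 1.37 to 1.82 FPKM), and overlap for the other 5 genes.

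GLI1 (ENSG00000111087) lies on chromosome 12 from 57853568 to 57866051 on the plus strand of GRCh37 and has 12 exons in its canonical transcript. GLI1 was at 1.63, 1.73 and 1.21 FPKM in replicates 1, 2 and 3 of EWSR1::FLI1 high cells. It was 0.559, 0.505 and 0.426 FPKM in replicates 1, 2 and 3 of EWSR1::FLI1 low cells. The lowest EWSR1::FLI1 high library was therefore above the highest EWSR1::FLI1 low library, and the 3 EWSR1::FLI1 low libraries lay close together. The group means were 1.53 ± 0.276 and 0.497 ± 0.0673 FPKM (SD, n = 3 each), a ratio of 3.07 on the FPKM scale. The log2 fold change was -0.75 (standard error 0.16, 95% confidence interval -1.12 to -0.38) and the adjusted p was 0.0140 (limma), just above the threshold of 0.01. These values rest on few reads, 62, 50 and 34 in EWSR1::FLI1 high and 18, 15 and 24 in EWSR1::FLI1 low cells. The deepest library, EWSR1::FLI1 low replicate 3, thus held fewer GLI1 reads than each of the EWSR1::FLI1 high libraries.

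The call on GLI1 depended on the processing. The log2 fold change of GLI1 was negative in all 15 alternative fits, from -1.62 to -0.69, and its adjusted p was between 0.000913 and 0.0716 (limma). As the groups did not overlap, leaving out a library or changing the pseudocount, the filter or the block could not have turned the direction. GLI1 was called in 3 of these fits. Quantile normalization gave a log2 fold change of -0.87 with an adjusted p of 0.00538. Sample quality weights gave -0.79 and 0.000913, and limma-voom on the recovered reads gave -1.62 and 0.00469. These 3 fits also called more of all genes tested, 12.8%, 30.6% and 11.2% in turn, against 7.88% in the reported fit. Without EWSR1::FLI1 low replicate 1, the library that stood apart, the log2 fold change was -0.78 with an adjusted p of 0.0106. The largest adjusted p came when EWSR1::FLI1 high replicate 2 was left out, the library with the highest GLI1 value. With a pseudocount of 0.1 in place of 1 the log2 fold change was -1.44, and the adjusted p was 0.0128.

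**Figure D2:**
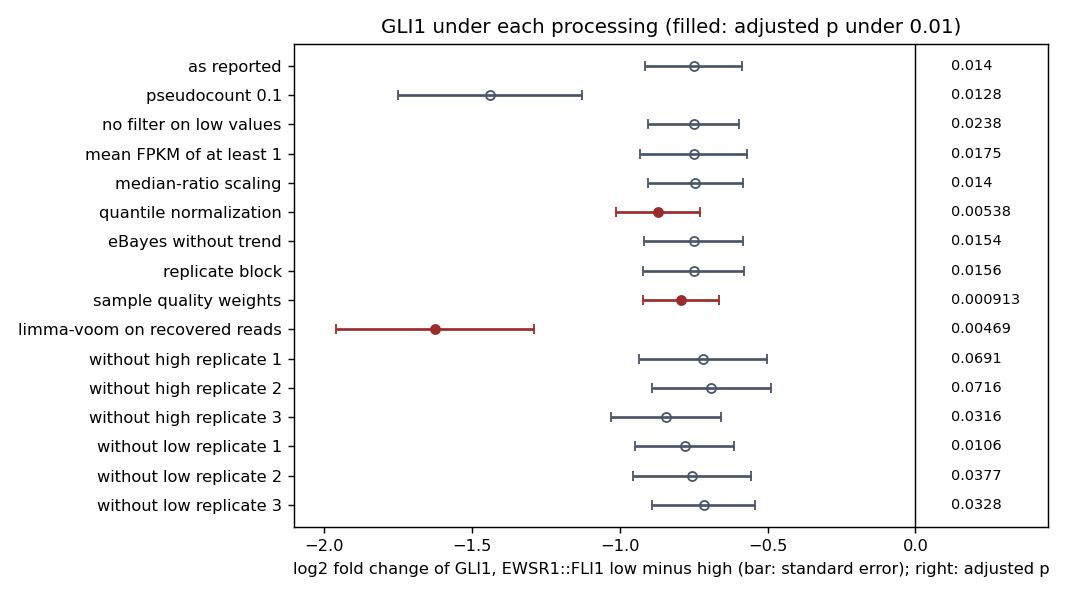
Log2 fold change of GLI1 (horizontal axis, EWSR1::FLI1 low minus high) in the reported fit and in 15 alternatives (rows), with standard errors as bars and the adjusted p of each fit at the right. Filled points have an adjusted p under 0.01. All 16 points lie below 0, between -1.62 and -0.69, and the 3 filled ones are quantile normalization, sample quality weights and limma-voom on recovered reads.

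GLI2 (ENSG00000074047) lies on chromosome 2 from 121493199 to 121750229 on the plus strand and has 14 exons. It was at 1.13, 0.741 and 1.22 FPKM in the EWSR1::FLI1 high cells and at 1.73, 1.82 and 1.37 FPKM in the EWSR1::FLI1 low cells. The lowest EWSR1::FLI1 low library was above the highest EWSR1::FLI1 high library, the opposite order to GLI1. The means were 1.03 ± 0.254 and 1.64 ± 0.235 FPKM (SD, n = 3 each). The log2 fold change was 0.38 (standard error 0.17, 95% confidence interval -0.0036 to 0.77), with an adjusted p of 0.1495 (limma), so the difference did not pass the test. The GLI2 change stayed positive in all 15 alternatives, between 0.27 and 0.66. As the groups did not overlap, leaving out a library or changing the pseudocount, the filter or the block could not have turned it. Its adjusted p was under 0.05 in 1 of the alternatives, sample quality weights (0.0226, limma), a fit that called 30.6% of all genes tested.

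GLI3 (ENSG00000106571), on chromosome 7 from 42000547 to 42303699 on the minus strand with 15 exons, had the highest FPKM of the GLI factors in both groups. It was at 3.45, 2.28 and 3.21 FPKM in the EWSR1::FLI1 high cells and at 6.72, 2.60 and 3.36 FPKM in the EWSR1::FLI1 low cells. The value of EWSR1::FLI1 low replicate 1 stood out, and the other 2 EWSR1::FLI1 low libraries lay within the EWSR1::FLI1 high range. The means were 2.98 ± 0.618 and 4.23 ± 2.19 FPKM (SD, n = 3 each), and the log2 fold change of GLI3 was 0.33 ± 0.28 (standard error; adjusted p = 0.45, limma). Without EWSR1::FLI1 low replicate 1 the log2 fold change was 0.01 with an adjusted p of 0.983 (limma), and with sample quality weights it was -0.02. The difference between the GLI3 means thus rested on 1 library.

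Within each library the GLI factors were then set against each other, which does not depend on the scaling between libraries. GLI1 made up 26.3%, 36.5% and 21.5% of the summed FPKM of GLI1, GLI2 and GLI3 in replicates 1, 2 and 3 of EWSR1::FLI1 high cells. In replicates 1, 2 and 3 of EWSR1::FLI1 low cells its share was 6.21%, 10.3% and 8.25%. The groups did not overlap, and the share was lowest in the library with the highest GLI3 value. The mean share was 28.1% ± 7.65 in EWSR1::FLI1 high and 8.24% ± 2.03 in EWSR1::FLI1 low cells (SD, n = 3 each), a difference of -19.9 percentage points. A two-sided exact permutation test gave p = 0.1, the smallest value that 3 samples against 3 allow, and 0.2 after Benjamini-Hochberg adjustment over 8 measures, so this design could not reach 0.05. Without EWSR1::FLI1 low replicate 1 the difference was -18.8 percentage points. Counted in recovered reads, which are not corrected for gene length, it was -11.4 percentage points, with shares of 15.4% and 4.03%.

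The summed FPKM of the GLI factors itself was 5.53 ± 0.733 in EWSR1::FLI1 high and 6.36 ± 2.29 in EWSR1::FLI1 low cells (SD, n = 3 each; exact permutation p = 0.8). The share of GLI2 was 18.5% ± 3.03 and 27.6% ± 8.93 (exact permutation p = 0.2), and that of GLI3 was 53.4% ± 4.83 and 64.2% ± 10.95 (exact permutation p = 0.3), with overlapping groups for both. The log2 ratio of GLI1 to GLI2 was 0.54, 1.23 and -0.01 in replicates 1, 2 and 3 of EWSR1::FLI1 high cells. It was -1.63, -1.85 and -1.69 in the same order in EWSR1::FLI1 low cells. GLI1 was thus close to or above the level of GLI2 in EWSR1::FLI1 high cells and below it in every EWSR1::FLI1 low library. The log2 ratio of GLI1 to GLI3 was -0.96 ± 0.52 and -2.98 ± 0.61 (SD, n = 3 each). These ratios also had non-overlapping groups, each with an exact permutation p of 0.1 and an adjusted value of 0.2.

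**Figure D3:**
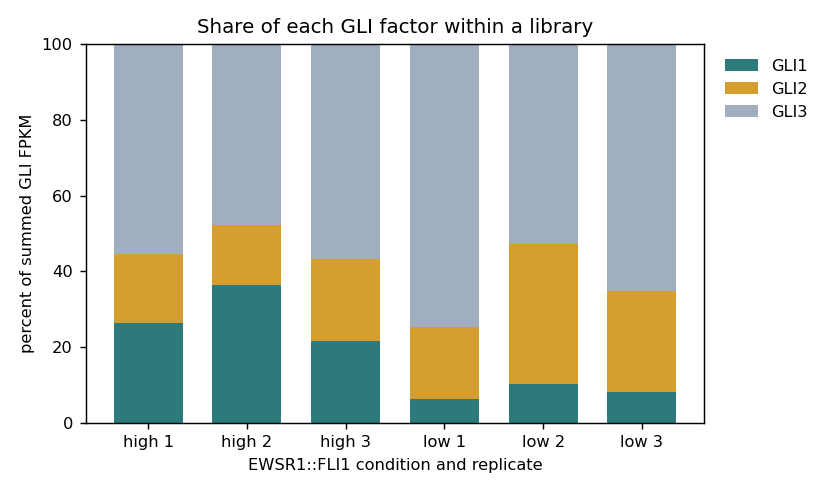
Share of GLI1 (teal), GLI2 (yellow) and GLI3 (grey) in the summed FPKM of the GLI factors (vertical axis, percent) in each library (horizontal axis, condition and replicate). The GLI1 segment covers 21.5% to 36.5% in the EWSR1::FLI1 high libraries and 6.21% to 10.3% in the EWSR1::FLI1 low libraries.

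PTCH1 (ENSG00000185920), the ligand receptor, lies on chromosome 9 from 98205262 to 98279339 on the minus strand and has 24 exons. It was at 1.49, 1.101 and 1.64 FPKM in the EWSR1::FLI1 high cells and at 1.55, 1.02 and 1.35 FPKM in the EWSR1::FLI1 low cells. The ranges overlapped over most of their width, with replicate 2 the lowest in each group. The means were 1.41 ± 0.277 and 1.31 ± 0.270 FPKM (SD, n = 3 each), and the log2 fold change was -0.06 (95% confidence interval -0.46 to 0.33, adjusted p = 0.839, limma). GLI1 and PTCH1, both classical target genes of the pathway, were also compared within each library. The log2 ratio of GLI1 to PTCH1 was 0.12 ± 0.54 in EWSR1::FLI1 high and -1.38 ± 0.34 in EWSR1::FLI1 low cells (SD, n = 3 each). The groups of this ratio did not overlap (exact permutation p = 0.1, adjusted 0.2).

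Promoter sequences of 5 of the 7 genes, 10 windows in all, were taken from RefSeq on GRCh38.p14, each from 250 bases before to 50 bases after a transcript start. No window of GLI1 or GLI3 was used here. Windows were searched on both strands for the GLI consensus site GACCACCCA, which reads TGGGTGGTC on the other strand. It was found in 1 of the 10 windows, before the start of 1 of the 5 PTCH1 transcripts with a window, and in 0.236% of the 35116 RefSeq windows of this length. The match begins 172 bases before that transcript start. A pair of GGAA elements, the core that ETS factors such as FLI1 bind, was searched as GGAAGGAA and its other strand TTCCTTCC. It was in none of the 10 windows and in 3.67% of all windows. The 250 bases before the start are printed for the PTCH1 window with the site, since PTCH1 is a GLI target gene whose groups overlapped. The window of HHIP, also a GLI target gene, is printed beside it as an example of a window with neither motif. The other PTCH1 windows and those of GLI2, SMO and SUFU hold neither motif as well. Capitals mark the GLI site, and a match is a match of letters and not a measured binding site.
PTCH1, chr9:95509267-95509516, minus strand: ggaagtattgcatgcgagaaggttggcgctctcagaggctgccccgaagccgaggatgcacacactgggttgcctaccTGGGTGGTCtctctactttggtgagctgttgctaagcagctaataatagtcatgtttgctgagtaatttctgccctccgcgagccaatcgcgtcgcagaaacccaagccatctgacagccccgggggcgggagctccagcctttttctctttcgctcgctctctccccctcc
HHIP, chr4:144645906-144646155, plus strand: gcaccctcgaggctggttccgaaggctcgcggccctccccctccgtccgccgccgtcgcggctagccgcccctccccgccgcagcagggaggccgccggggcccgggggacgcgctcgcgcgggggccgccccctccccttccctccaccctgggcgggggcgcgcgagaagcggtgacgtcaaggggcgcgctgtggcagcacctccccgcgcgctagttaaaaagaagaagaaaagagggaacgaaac

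HHIP (ENSG00000164161), a membrane protein that binds hedgehog ligands and so limits the signal, lies on chromosome 4 from 145567308 to 145666423 on the plus strand and has 13 exons. It had the lowest FPKM of the 7 genes and, with a mean of 0.452 FPKM, was under the filter and was not tested. It was at 0.590, 0.706 and 0.145 FPKM in the EWSR1::FLI1 high cells and at 0.728, 0.309 and 0.235 FPKM in the EWSR1::FLI1 low cells. The reads behind these values were 22, 20 and 4 and then 23, 9 and 13. The spread within a group was larger than the difference of the means, 0.480 ± 0.296 against 0.424 ± 0.266 FPKM (SD, n = 3 each). Without the filter on low values its log2 fold change was -0.05 with an adjusted p of 0.917 (limma). No difference in HHIP was detected, and the part of read depth in this was not tested. The antisense gene HHIP-AS1 overlaps HHIP on the minus strand and was at 0.768 ± 0.0921 and 1.03 ± 0.251 FPKM (SD, n = 3 each; adjusted p = 0.463, limma). The sources used here do not state whether counting used strand, so reads of HHIP and HHIP-AS1 may not be separable. Across the 7 genes, 15 annotated genes overlap a member, and 2 of them have values in the table. The other is ARHGAP9, which shares 5 bases with the end of GLI1 on the opposite strand and was at 0.257 ± 0.0892 and 0.473 ± 0.206 FPKM (SD, n = 3 each). A long noncoding RNA gene without a value, ENSG00000287200, also overlaps GLI1, over 3034 bases of its span on the opposite strand. Whether its reads entered the GLI1 values was not tested.

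SMO (ENSG00000128602), the signal transducer of the pathway, lies on chromosome 7 from 128828474 to 128853386 on the plus strand and has 12 exons. It had the highest mean FPKM of the 7 genes in both groups. SMO was at 7.09, 5.30 and 5.77 FPKM in the EWSR1::FLI1 high cells and at 6.53, 5.38 and 6.23 FPKM in the EWSR1::FLI1 low cells. The EWSR1::FLI1 low libraries lay within the EWSR1::FLI1 high range. Both means rounded to 6.05 FPKM, with SD 0.925 and 0.595 (n = 3 each), and the log2 fold change was 0.00 (95% confidence interval -0.38 to 0.39, adjusted p = 0.992, limma). The interval allows changes in either direction of up to 0.39 on the log2 scale. The log2 ratio of PTCH1 to SMO was -2.11 ± 0.25 in EWSR1::FLI1 high and -2.23 ± 0.17 in EWSR1::FLI1 low cells (SD, n = 3 each; exact permutation p = 0.7).

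SUFU (ENSG00000107882), the inhibitor that holds GLI factors in the cytoplasm, lies on chromosome 10 from 104263729 to 104393292 on the plus strand and has 12 exons. It was at 2.69, 1.55 and 3.21 FPKM in the EWSR1::FLI1 high cells and at 3.18, 3.49 and 3.52 FPKM in the EWSR1::FLI1 low cells. The lowest value was in EWSR1::FLI1 high replicate 2, and the highest EWSR1::FLI1 high library lay just above the lowest EWSR1::FLI1 low library. The means were 2.48 ± 0.851 and 3.39 ± 0.189 FPKM (SD, n = 3 each), with a log2 fold change of 0.37 (95% confidence interval -0.10 to 0.83, adjusted p = 0.247, limma). Without EWSR1::FLI1 high replicate 2 the log2 fold change was 0.16.

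The order of the genes by mean FPKM in the EWSR1::FLI1 high cells was SMO, GLI3, SUFU, GLI1, PTCH1, GLI2 and HHIP. In EWSR1::FLI1 low cells it was SMO, GLI3, SUFU, GLI2, PTCH1, GLI1 and HHIP, so GLI1 and GLI2 had exchanged places. In EWSR1::FLI1 high cells SMO was above GLI3 and GLI2 above HHIP without overlap, and the ranges of all other neighbours overlapped. In EWSR1::FLI1 low cells SUFU was above GLI2 and PTCH1 above GLI1 without overlap. GLI1 and HHIP overlapped there, as did SMO and GLI3, GLI3 and SUFU, and GLI2 and PTCH1. As these are bulk samples, fewer cells expressing a gene and less RNA of it per cell cannot be told apart.

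The genes closest to GLI1 in their pattern over the 6 libraries, by the root mean square difference of centred log2(FPKM + 1) values, were L3MBTL3 (0.0607), MCTS2P (0.0673) and RMND5A (0.0821). The likeness holds on this scale only, which understates the change of genes of low FPKM. The ratio of FPKM means, high to low, was 3.07 for GLI1 and 1.78, 1.79 and 1.71 for these genes in turn. MCTS2P is a retrocopy whose reads may be shared with its parent gene. L3MBTL3 was at 15.2 ± 0.946 and 8.53 ± 0.0716 FPKM and RMND5A at 31.3 ± 0.901 and 18.3 ± 1.46 FPKM (SD, n = 3 each). The closest to PTCH1 were ZNF713 (0.0327), BHLHB9 (0.0366) and FAM86EP (0.0469). ZNF713 was at 6.79 ± 0.900 and 6.33 ± 0.724 FPKM (SD, n = 3 each).

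Further genes of the pathway were counted in 6 lists. Of 73 listed symbols, 62 were tested and 6 were called, 3 lower and 3 higher in EWSR1::FLI1 low cells, which is 9.68%. Among all genes tested, 3.37% were called lower and 4.51% higher. The median log2 fold change of the 62 genes was 0.13.

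The ligands SHH, IHH and DHH were at or near the limit of detection in all libraries. SHH had between 0 and 5 reads per library, IHH between 0 and 2 and DHH between 0 and 4. Taking 3 reads as the floor of detection, SHH below 0.122 to 0.246 FPKM, depending on the library, could not be told from absence. Among the 8 genes for ligands and their release 3 were tested, and 1 of them was called, where 7.88% of all genes tested were called. DISP1, which releases the lipid-modified ligand from the cell, was at 0.929, 0.815 and 0.760 FPKM in the EWSR1::FLI1 high and at 2.42, 3.57 and 2.53 FPKM in the EWSR1::FLI1 low cells. DISP1 rose by 1.05 on the log2 scale (standard error 0.17, adjusted p = 0.00378, limma), with all EWSR1::FLI1 low libraries above all EWSR1::FLI1 high libraries. DISP1 lost the call in 6 of 15 alternatives, without the filter on low values and without any single library other than EWSR1::FLI1 low replicate 1, where its adjusted p reached 0.0234 (limma). HHAT, the enzyme that attaches palmitate to the ligand, was at 2.03 ± 0.527 and 5.11 ± 1.09 FPKM (SD, n = 3 each) and missed the threshold with an adjusted p of 0.0104 (limma). It was named after its values were seen.

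Of the 6 receptors and co-receptors none was called by limma, and 3 had an unadjusted p under 0.05, where 34.3% of all genes tested did. The most abundant, GAS1, a co-receptor that promotes ligand binding, was at 20.9, 20.8 and 21.3 FPKM in the EWSR1::FLI1 high cells. In the EWSR1::FLI1 low cells GAS1 was at 14.7, 2.76 and 5.08 FPKM, so the groups did not overlap but EWSR1::FLI1 low replicate 1 was far above the other 2. The log2 fold change of GAS1 was -1.63 ± 0.43 (standard error; adjusted p = 0.0309, limma). The co-receptors BOC and CDON, named after their values were seen, had the opposite direction. BOC was at 0.218 ± 0.0137 and 1.78 ± 1.09 FPKM (adjusted p = 0.0206, limma) and CDON at 3.597 ± 0.692 and 7.12 ± 2.44 FPKM (adjusted p = 0.0541, limma; SD, n = 3 each).

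Regulators of SMO and the GLI factors gave no call among the 25 tested by limma, and 7 of them had an unadjusted p under 0.05, against 34.3% of all genes tested. Of the 25, 18 had a positive and 7 a negative log2 fold change, with a median of 0.17. The most abundant was CSNK1A1, a kinase that phosphorylates GLI proteins, at 152 ± 14.6 and 159 ± 25.8 FPKM (SD, n = 3 each; log2 fold change 0.05). GPR161, a ciliary receptor that restrains the pathway, was at 5.33, 3.74 and 4.06 FPKM in the EWSR1::FLI1 high and at 7.33, 7.99 and 7.83 FPKM in the EWSR1::FLI1 low cells. Its groups did not overlap, its adjusted p was 0.0216 (limma), and it was named after its values were seen. Of the 25, 6 were higher and 5 lower in EWSR1::FLI1 low cells without overlap, as were 17.5% and 23.6% of all genes tested. ARRB2, also named after its values were seen, was lower, at 8.70 ± 1.19 and 5.16 ± 0.591 FPKM (SD, n = 3 each; adjusted p = 0.0296, limma). Of 10 genes of the primary cilium none was called by limma, and 3 had an unadjusted p under 0.05, again beside 34.3% of all genes tested. TULP3, which carries receptors into the cilium and had the highest mean over the 6 libraries of the 10, was at 28.5 ± 4.28 and 31.6 ± 5.56 FPKM (SD, n = 3 each).

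Among 14 genes described as GLI targets in other tissues, 12 were tested and 5 were called, 3 lower and 2 higher, where 7.88% of all genes tested were called. At an unadjusted p under 0.05, 11 of the 12 passed, against 34.3% of all genes tested. The list was chosen with earlier results of these data known, so these counts are not an independent test of it. CCND1, a cyclin of the G1 phase, was at 394, 375 and 387 FPKM in the EWSR1::FLI1 high and at 70.8, 141 and 116 FPKM in the EWSR1::FLI1 low cells. CCND1 fell by 1.87 on the log2 scale (adjusted p = 0.00124, limma), and it was the one of the 5 called in all 15 alternatives. NKX2-2, a transcription factor of the neural tube that is also a marker of Ewing sarcoma, was at 3.99, 3.92 and 5.77 FPKM and then at 1.57, 1.29 and 1.39 FPKM. NKX2-2 fell by 1.19 (adjusted p = 0.00257, limma). JAG2, a Notch ligand, was at 1.26, 1.08 and 1.504 FPKM and then at 0.270, 0.293 and 0.209 FPKM, and fell by 0.85 (adjusted p = 0.00753, limma). Its EWSR1::FLI1 low mean, 0.257 FPKM, was under the filter, so JAG2 was tested only because of its EWSR1::FLI1 high values.

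BCL2, the apoptosis inhibitor, was at 2.001, 2.58 and 2.85 FPKM in the EWSR1::FLI1 high and at 6.79, 5.88 and 6.47 FPKM in the EWSR1::FLI1 low cells, and rose by 1.09 (adjusted p = 0.00265, limma). SPP1, which encodes the secreted matrix protein osteopontin, was at 0.210, 0.484 and 0.783 FPKM and then at 8.06, 114 and 103 FPKM. SPP1 rose by 5.02 on the log2 scale (standard error 0.82, adjusted p = 0.00394, limma), with EWSR1::FLI1 low replicate 1 far below the other 2 EWSR1::FLI1 low libraries. Its EWSR1::FLI1 high mean, 0.492 FPKM, was under the filter, so SPP1 was tested only because of its EWSR1::FLI1 low values. The 4 genes other than CCND1 each lost the call in some alternatives, BCL2 and NKX2-2 in 4 of 15, SPP1 in 5 of 15 and JAG2 in 6 of 14. Leaving out EWSR1::FLI1 high replicate 2, EWSR1::FLI1 high replicate 3 or EWSR1::FLI1 low replicate 3 took the call from each of these 4 genes. EWSR1::FLI1 high replicate 1 did so for BCL2, JAG2 and SPP1, and EWSR1::FLI1 low replicate 2 for JAG2. Without the filter on low values the call was lost by NKX2-2 (adjusted p = 0.01005, limma) and SPP1 (adjusted p = 0.0120, limma). With the replicate block it was lost by JAG2. The highest adjusted p over the alternatives was 0.0188 for BCL2, 0.013 for NKX2-2, 0.0214 for SPP1 and 0.0443 for JAG2 (limma). The median log2 fold change of the 12 tested targets was 0.16, with 6 positive and 6 negative. Of the zinc finger factors related to the GLI family, GLIS and ZIC, 6 of 8 were tested and none was called by limma, with 4 at an unadjusted p under 0.05 (34.3% of all genes tested). ZIC2, the most abundant, was at 9.46 ± 1.47 and 5.65 ± 2.44 FPKM (SD, n = 3 each; adjusted p = 0.0961, limma).

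**Figure D4:**
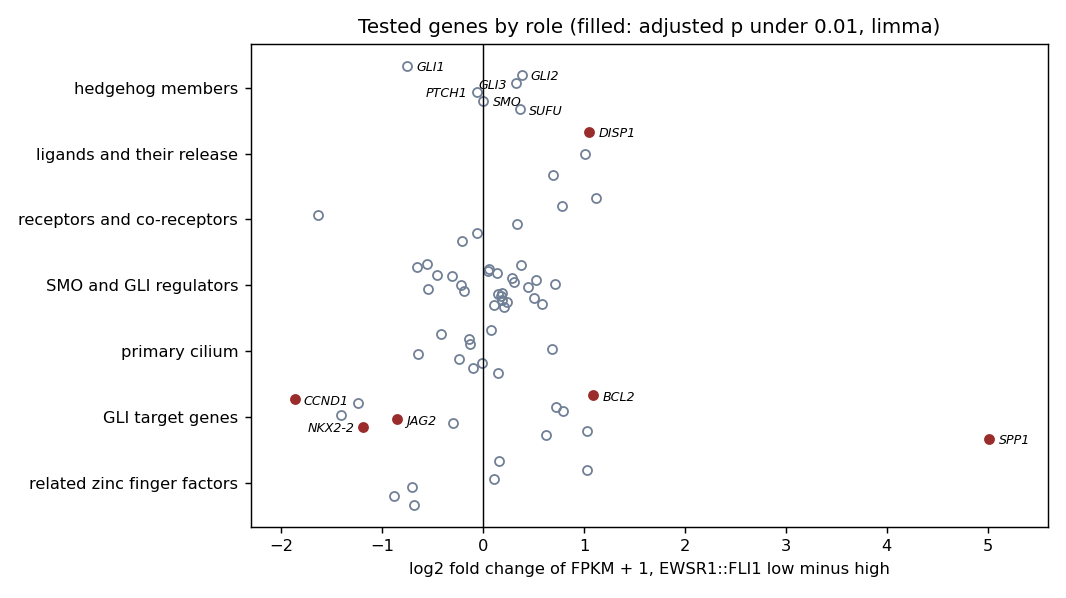
Log2 fold change of FPKM + 1 (horizontal axis, EWSR1::FLI1 low minus high) of every tested gene of the hedgehog members and of the 6 pathway lists (rows, spread vertically within a list). Filled points have an adjusted p under 0.01 in limma. The 6 hedgehog genes lie between -0.75 (GLI1) and 0.38 (GLI2) with none filled, and the filled points are DISP1, CCND1, JAG2, NKX2-2, BCL2 and SPP1.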

How the data were processed

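RNAseq of 6 A673/TR/shEF samples, 3 per condition, was analysed, with samples assigned by their labels. Per the labels, total RNA was depleted of ribosomal RNA and libraries were made with the ScriptSeq v2 kit. The submitters' processing notes name STAR 2.5.0b, bedtools 2.17.0, Cufflinks 2.2.1, DESeq2 1.6.3 and GRCh37. The authors deposited FPKM per gene symbol and library, and a DESeq2 table of their comparison, of which only the mean signal per gene (mean of normalized counts) was used. Its fold changes and p-values were not used. FPKM multiplied by the ratio of that mean signal to the mean FPKM of the gene, and then by a size factor found for each library (0.829 to 1.67), gave whole reads for 100% of the values, within 0.1 reads. The reported test uses FPKM, and the recovered reads served limma-voom as an alternative.

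The test was run on genes whose mean FPKM reached 0.5, with limma 3.58.1 in R 4.3.3 (lmFit, eBayes with trend, pseudocount 1). Within-library shares and ratios were compared with two-sided exact permutation tests in scipy 1.17.1. The share of GLI1 and the ratios of GLI1 to GLI3 and of PTCH1 to SMO were planned and the other 5 measures were added. When the fit was tested on simulated data for this comparison, over 15504 genes, 43.5% of 200 genes changed by 1.5 on the log2 scale were recovered, with 1 false call. The simulation gave both groups the same SD for a gene. In the data the EWSR1::FLI1 low replicates differed more among themselves, so these figures may not hold there. The changed genes were drawn from those with a mean log2(FPKM + 1) above 1.5. GLI1, GLI2 and PTCH1, with mean FPKM of 1.01, 1.33 and 1.36, lay below that limit, so this rate does not describe them. No 2 replicates agreed within sampling noise. Chi-square per degree of freedom was 4.25 to 6.27 between EWSR1::FLI1 high replicates and 20.2 to 31.5 between EWSR1::FLI1 low replicates. Each counted as 1 sample, but these values do not show that the samples were grown separately. The 7 genes, the pathway lists and the tests were chosen with earlier results of these data known. Named were all members, FLI1 and EWSR1, called genes of each list or else its most abundant member, the 3 genes most like GLI1 and PTCH1, and overlapping genes with values. Marker genes are also named, and any other gene is said to be named after its values were seen. Read floors cover counting error only. Alternatives were quantile normalization, sample quality weights, limma-voom, a replicate block, leaving out each library, eBayes without trend, median-ratio scaling, a pseudocount of 0.1, no filter and a filter at 1 FPKM. Coordinates are from GENCODE v44 lifted to GRCh37 and promoters from RefSeq. Protein sequences were not used here.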

Additional observations from a re-analysis of the deposited data

How the results depend on the processing

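In 15 alternative fits no hedgehog gene was called except GLI1, which was the 1 called under quantile normalization, under sample quality weights and with limma-voom on the recovered reads. The number of genes called among all tested was 1222 as reported, 753 without the filter on low values, 1985 with quantile normalization and 4745 with sample quality weights. It lay between 475 and 2334 when 1 library was left out. The lowest counts came without EWSR1::FLI1 high replicate 1 (566), 2 (475) or 3 (478), and the highest without EWSR1::FLI1 low replicate 1 (2334). The share of called genes that were higher in EWSR1::FLI1 low cells was 57.3% as reported, 50.03% with quantile normalization and 37.6% to 67.2% with 1 library left out. The difference in the GLI1 share was -11.4 percentage points on recovered reads, which are not corrected for gene length, and -23.2 to -15.7 with 1 library left out. Among the hedgehog genes, the direction of GLI3 turned with sample quality weights (-0.024, against 0.33 as reported). SMO and PTCH1, at 0.00 and -0.06 as reported, also turned, SMO with sample quality weights (-0.12) and with 1 library left out (-0.0735 to 0.106), and PTCH1 with 1 library left out (-0.159 to 0.0305), on the log2 scale. The cause was not tested. FLI1 was called in all 15 alternatives (-1.82 to -1.37). Samples with the same replicate number deviated together only weakly (correlations 0.27, 0.09 and 0.12), and samples with differing numbers had correlations from -0.29 to 0.19. The numbers were not taken to pair the samples, but these values do not exclude a pairing. With a replicate block 1702 genes and 0 hedgehog genes were called, GLI1 with an adjusted p of 0.0156 (limma) and JAG2 lost its call (0.0114). HHIP rests on 4 to 23 reads per library and GLI1 on 15 to 62.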
